A study of Anguilla japonica with 6 samples.

Results

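The enzymes of glycolysis and of the citric acid cycle were followed in the gonads of the Japanese eel (Anguilla japonica), with the enzymes that branch from the 2 routes: lactate dehydrogenase, the pyruvate dehydrogenase complex, their regulators and the enzymes of glucose synthesis. Members were chosen by gene symbol, taken from the protein hit in a vertebrate that the authors' annotation gives each transcript. Of 9262 symbols, 121 matched the name pattern, 74 of these were set aside because their protein description was not such an enzyme, and 47 genes with 160 transcripts stayed. The rule used no measured value, though it was set with earlier results of these data known. The fish were farmed silver eels, the stage that precedes the spawning migration, and their gonads were differentiated but immature, with no hormone given. RNA of 3 ovaries was compared with RNA of 3 testes, and each gonad came from another fish. Short reads had been counted on transcripts that long reads of both gonads gave at full length. Of the 160 transcripts 104 were built from ovary and 56 from testis. Libraries held 15096728 to 18508307 counts in ovary and 11913969 to 13616804 in testis.

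Glycolysis splits glucose in the cytosol into pyruvate and yields a little ATP without oxygen, with hexokinase, phosphofructokinase and pyruvate kinase as its one-way steps. Pyruvate is then either reduced to lactate or carried into mitochondria, where the pyruvate dehydrogenase complex turns it into acetyl-CoA for the citric acid cycle, which feeds the respiratory chain. Many steps have several enzyme forms (isozymes) from separate genes, and in mammals male germ cells use forms of their own for several glycolytic steps, while growing oocytes rely mainly on pyruvate.

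All 47 genes passed the filter on low counts. By edgeR's quasi-likelihood test with Benjamini-Hochberg adjustment over 12367 genes, 12 of the 47 were higher in testis, 14 were higher in ovary, and 21 did not pass at an adjusted p of 0.05. Here and below, the genes tested include transcripts without a symbol, each kept as a unit of its own. Over all genes tested, 45.9% were called, 24.8% higher in testis and 21.1% higher in ovary, against 55.3%, 25.5% and 29.8% of the enzyme genes, which is near the background in testis and somewhat above it in ovary. The testis was higher in hexokinase and phosphofructokinase genes, in 1 aldolase gene, 1 enolase gene and 1 lactate dehydrogenase gene, and in 3 subunits of the pyruvate dehydrogenase complex. The ovary was higher in most of the later steps of glycolysis and in 3 of 5 genes of glucose synthesis. The FPKM of the tissues did not overlap for 28 of the 47 genes, 14 with testis above and 14 with ovary above, and over all genes tested this share was 59.2%, with 35.1% and 24.1% in these directions. The median log2 fold change of the 47 genes, testis over ovary, was -0.37, beside 0.11 over all genes tested.

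Values below are FPKM, the authors' reads per kilobase of transcript scaled to library size, summed over the transcripts of a symbol, and are listed for fish 1, 2 and 3 of each tissue. Fold changes come from the count model, which scales libraries in another way (TMM), so they can differ from ratios of FPKM. In whole gonads, fewer cells of a type and less RNA per cell cannot be told apart. Egg envelope and other oocyte markers (8 of 8 found) summed to 128000 to 148000 FPKM in the ovaries and to 610, 22100 and 4480 in testes 1, 2 and 3. Genes listed as male germ cell markers (6 of 6 found) summed to 105 to 154 in ovary and to 1190 to 2040 in testis, the most in testis 1. Most of each sum was ddx4, present in both tissues, at 144, 112 and 97.6 in ovary and 1100, 834 and 924 in testis. Red blood cell markers (3 of 9 found) summed to 150 to 187 in ovary and 1410 to 3890 in testis, but these genes disagreed between the testes. Cahz stood at 3723, 81.0 and 132 in testes 1, 2 and 3, hbb1 at 160, 3679 and 1267, and alas2 at 3.17, 39.6 and 12.2. In testis 1 hbb1 was thus within its ovary range of 147 to 182. Muscle markers (6 of 14) summed to 11.9 to 18.2 and 81.4 to 848, and leukocyte markers (3 of 7) to 29.1 to 64.3 and 70.9 to 352. None of 4 liver markers was found. No marker that was found was at 0 in all fish of a tissue, and the part of any of these cell types in the results below was not tested.

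**Figure D1:**
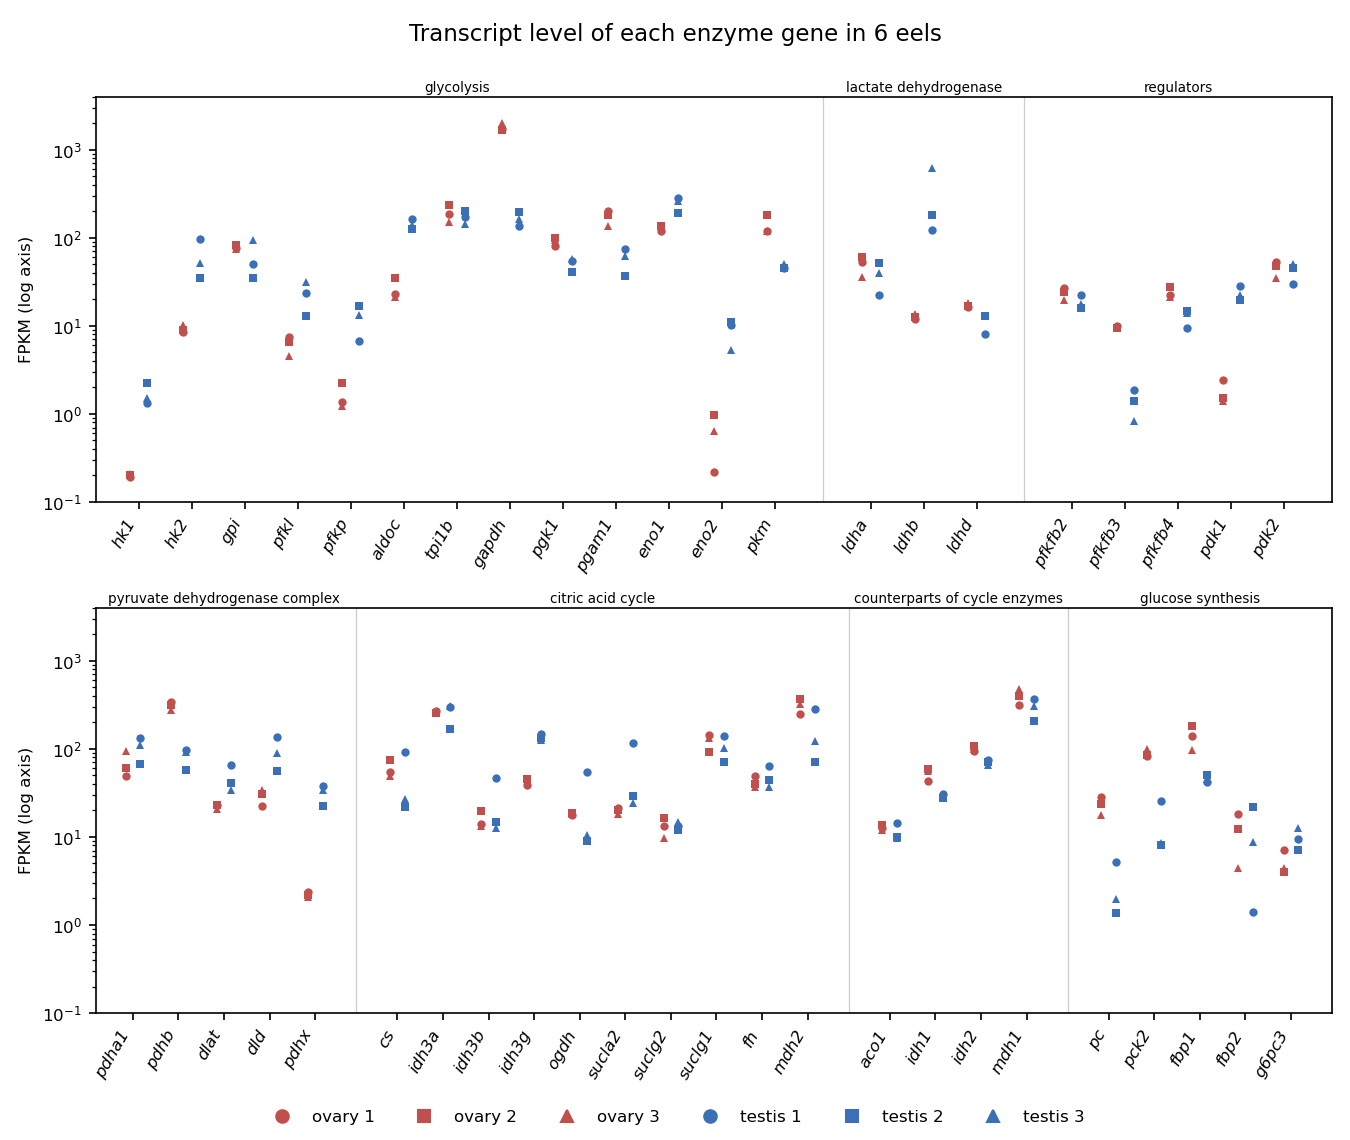
FPKM of the enzyme genes on a log axis, grouped by role; each point is 1 fish (red ovary, blue testis, and the shape gives the fish). Gapdh is the highest gene in ovary, at 1661 to 1988 FPKM, and the citric acid cycle genes cs, idh3b, ogdh and sucla2 are high in testis 1 and lower in the other 2 testes.

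Hexokinase and phosphofructokinase genes were higher in testis, and the isomerase between them did not pass. Hexokinase phosphorylates glucose and so holds it in the cell. The main hexokinase gene, hk2, stood at 8.41, 9.07 and 10.2 FPKM in the ovaries and at 96.2, 35.2 and 51.3 in the testes. Every testis was above every ovary, and the count model gave a 5.28-fold higher level in testis (log2 fold change 2.40 ± 0.39 SE, edgeR adjusted p = 0.00372). Hk1, which in mammals includes a sperm form, was scarce in both tissues, at 0.190, 0.200 and 0.210 against 1.34, 2.22 and 1.53 (log2 fold change 2.83 ± 0.67, edgeR adjusted p = 0.0135), a call lost without ovary 1, ovary 2 or testis 2 (0.0545 to 0.0649). It made up 2.13% ± 0.0972 (SD, n = 3) of hexokinase FPKM in ovary and 3.40% ± 2.32 in testis, with overlap. Glucose-6-phosphate isomerase (gpi), which turns the product into fructose-6-phosphate, stood at 75.5, 82.8 and 73.7 against 50.8, 35.2 and 95.2. Testis 3 was above all ovaries and the other testes below them, and gpi did not pass (edgeR adjusted p = 0.204). Without testis 3 it did, as higher in ovary (edgeR adjusted p = 0.0170). Leaving out the testis that went the other way favours such a call, so it is no separate support.

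Phosphofructokinase commits the sugar to breakdown, and both of its genes were higher in testis. Pfkl, named for liver, stood at 7.55, 6.61 and 4.5 in ovary and 23.3, 12.9 and 31.1 in testis (log2 fold change 1.55 ± 0.42, edgeR adjusted p = 0.0224). Pfkp, named for platelets, stood at 1.36, 2.23 and 1.24 against 6.75, 16.7 and 13.2 (2.83 ± 0.52, edgeR adjusted p = 0.00565). The tissues did not overlap for either gene. The pfkl call was lost when any ovary or testis 3 was left out (edgeR adjusted p of 0.0537 to 0.0796), while pfkp passed in each case.

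Aldolase cuts the sugar into triose phosphates, and 2 of its forms were higher in testis. Not every aldolase form is reported by name here, so these 2 do not give the level or direction of the step. Aldoc, the brain-type aldolase, stood at 23.3, 34.8 and 21.3 FPKM in the ovaries and at 161, 124 and 138 in the testes. Every testis was above every ovary, and the count model gave a 4.46-fold higher level in testis (log2 fold change 2.16 ± 0.27, edgeR adjusted p = 0.00185). All 3 aldoc transcripts were built from testis long reads. Aldolase A, the muscle-type form, has 2 transcripts without a gene symbol, so the naming rule left it out, and it is added here after its values were seen. Its main transcript, of 1643 bases and built from ovary, stood at 15.8, 25.1 and 20.9 in ovary against 71.3, 66.2 and 152 in testis (1.98 ± 0.41, edgeR adjusted p = 0.00870).

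Triosephosphate isomerase (tpi1b), which interconverts the trioses, was abundant in both tissues, at 184, 235 and 151 FPKM in ovary and 173, 202 and 143 in testis, and did not pass (edgeR adjusted p = 0.306). Glyceraldehyde-3-phosphate dehydrogenase oxidises the triose and makes the NADH of glycolysis. Its gene gapdh was the highest of the 47 in ovary, with 1716, 1661 and 1988 FPKM, and stood at 135, 194 and 165 in testis. The next enzyme gene in ovary, mdh1, reached 483 FPKM. Gapdh was 12.9-fold higher in ovary (log2 fold change -3.69 ± 0.39, edgeR adjusted p = 0.00123), and 1 transcript of 1317 bases carried 98.3% of its FPKM in ovary and 90.3% in testis.

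A further gene of this step, with the symbol gapdh-2, lay outside the naming rule and was looked at after its values were seen. Its transcript, of 1475 bases and built from ovary, has a testis-specific form as its best protein hit in another fish. It stood at 9.13, 12.9 and 18.5 FPKM in ovary and at 265, 121 and 198 in testis, the reverse order of gapdh (11.8-fold higher in testis, log2 fold change 3.56 ± 0.42, edgeR adjusted p = 0.00150). Gapdh-2 held 0.740% ± 0.198 of the FPKM of both genes in ovary and 53.1% ± 14.0 in testis. Even so the sum of both genes was 1800 ± 179 in ovary and 359 ± 42.9 in testis.

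The later steps of glycolysis were mostly higher in ovary. Phosphoglycerate kinase (pgk1), which makes the first ATP, stood at 80.2, 98.6 and 94.1 against 54.0, 40.4 and 57.5 (log2 fold change -1.11 ± 0.25, edgeR adjusted p = 0.0112). Phosphoglycerate mutase (pgam1), which moves the phosphate, stood at 201, 182 and 137 against 75.3, 37.1 and 62.1 (-1.78 ± 0.35, edgeR adjusted p = 0.00685). Pyruvate kinase (pkm), which makes the last ATP, stood at 121, 180 and 120 against 45.0, 44.8 and 49.7 (-1.81 ± 0.28, edgeR adjusted p = 0.00312). For each of the 3 genes every ovary was above every testis. Enolase, the step between mutase and kinase, did not follow them. Eno1, the main enolase, stood at 119, 137 and 134 in ovary and at 281, 191 and 260 in testis. Every testis was above every ovary, but the count model did not call it (0.62 ± 0.27, edgeR adjusted p = 0.101), whereas limma on log2(FPKM + 1) did (adjusted p = 0.0267). Eno2, whose nucleotide hit is a beta-enolase, was scarce, at 0.220 to 0.970 in ovary and 5.37 to 11.1 in testis, and was called (3.61 ± 0.85, edgeR adjusted p = 0.0135). A further alpha-enolase transcript without a symbol, added after its values were seen, ranged from 2.13 to 32.6 in ovary and from 5.83 to 23.7 in testis (edgeR adjusted p = 0.727).

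Glycolysis as a group thus held 6 genes higher in testis, 5 higher in ovary and 3 that did not pass, 78.6% called beside 45.9% of all genes tested. The 14 glycolysis genes took 0.377%, 0.399% and 0.406% of all counts in the ovaries and 0.203%, 0.158% and 0.187% in the testes. Without gapdh the shares were 0.193%, 0.221% and 0.199% against 0.188%, 0.138% and 0.170%, so that most of the gap lay in 1 gene.

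**Figure D2:**
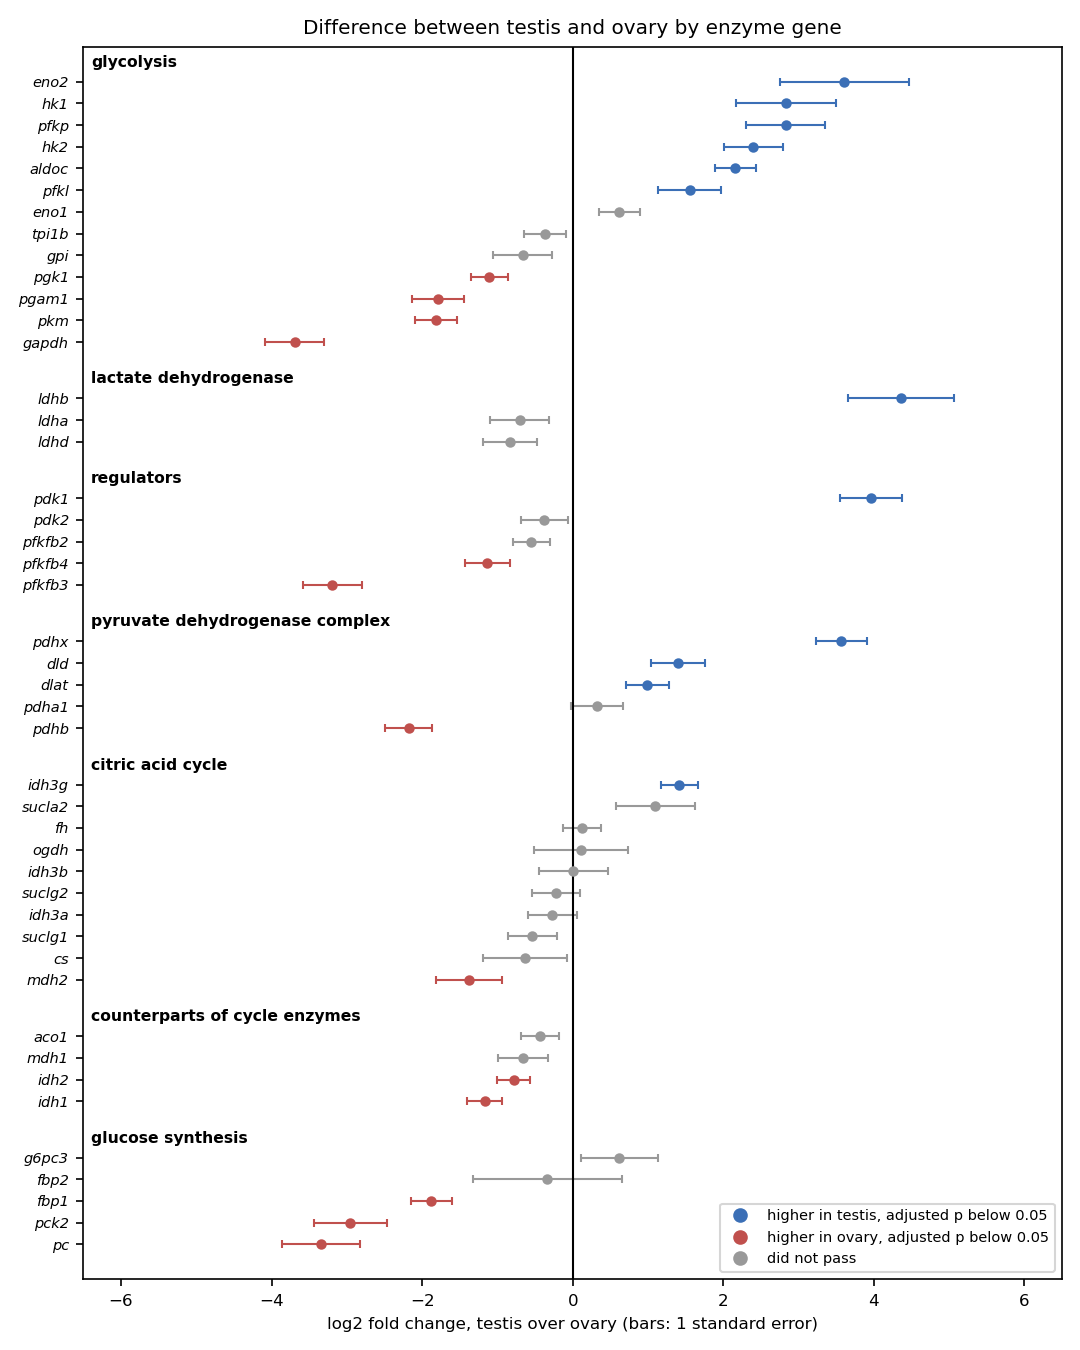
Log2 fold change of each enzyme gene, testis over ovary, with bars of 1 standard error from edgeR, grouped by role and sorted within each role; colour gives the call at an adjusted p of 0.05. Ldhb (4.36), pdk1 (3.96), eno2 (3.61) and pdhx (3.57) lie farthest to the testis side and gapdh (-3.69), pc (-3.35) and pfkfb3 (-3.19) farthest to the ovary side.

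L-lactate dehydrogenase interconverts pyruvate and lactate, and its main gene also changed between tissues. Ldhb, the heart-type form in mammals, stood at 12.1, 12.5 and 13.5 FPKM in the ovaries and at 124, 180 and 621 in the testes. It had the largest rise of the 47 genes, 20.6-fold (log2 fold change 4.36 ± 0.70, edgeR adjusted p = 0.00371), and testis 3 was far above the other 2 testes. Ldha, the muscle-type form, stood at 52.5, 61.0 and 35.4 against 22.1, 51.1 and 39.3, with overlap, and did not pass (edgeR adjusted p = 0.173). Ldhb held 21.1% ± 5.66 of the FPKM of both genes in ovary and 85.6% ± 8.08 in testis. The naming of this pair is not settled, since 3 of the 4 ldha transcripts have a B-chain-like gene as their nucleotide hit, and ldhb rests on 1 transcript, whose nucleotide hit is an eel lactate dehydrogenase. The shares depend on that naming. The ldha transcript with an A-chain hit, of 2347 bases, stood at 24.6, 26.2 and 32.4 against 5.36, 11.7 and 7.44 (edgeR adjusted p = 0.0620). The other 3 overlapped between tissues. Ldhd, which acts on D-lactate, stood at 16.4, 16.6 and 18.2 against 8.10, 13.1 and 13.1 and did not pass (edgeR adjusted p = 0.0939). No transcript carried the symbols of the germ cell or tissue forms gapdhs, pgk2, ldhc, eno4, pdha2 or pklr, so nothing was analysed under these symbols. That does not show the forms to be absent, since gapdh-2, given above, has a testis-specific form as its best protein hit.

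Regulators of both routes were split as well. The bifunctional pfkfb enzymes make and remove fructose-2,6-bisphosphate, the activator of phosphofructokinase. Pfkfb3, known in mammals as the form with the strongest kinase activity, stood at 10, 9.44 and 9.80 FPKM in ovary and at 1.87, 1.39 and 0.820 in testis (log2 fold change -3.19 ± 0.39, edgeR adjusted p = 0.00175). Pfkfb4, a testis form in mammals, stood at 22.4, 27.8 and 21.2 in ovary and 9.36, 14.6 and 13.8 in testis, so it was the ovary that was higher (-1.13 ± 0.30, edgeR adjusted p = 0.0210). This call was lost without any one of the ovaries (edgeR adjusted p of 0.0553 to 0.0775). Pfkfb2, the heart form in mammals, ranged from 19.6 to 26.7 and from 15.9 to 22.7 and did not pass (edgeR adjusted p = 0.106). Pfkfb3 held 17.2% ± 2.03 of the FPKM of the 3 genes in ovary and 4.13% ± 1.51 in testis, and pfkfb2 41.1% ± 3.48 and 57.2% ± 8.71.

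Pyruvate dehydrogenase kinases switch the complex off by phosphorylating its E1 subunit. Pdk1, a target of hypoxia signalling in mammals, stood at 2.41, 1.51 and 1.41 FPKM in ovary and at 28.0, 19.6 and 22.2 in testis, 15.6-fold higher (log2 fold change 3.96 ± 0.42, edgeR adjusted p = 0.00123). Pdk2, the widely expressed form, stood at 52.6, 48.1 and 34.7 against 29.8, 45.2 and 50.0 and did not pass (edgeR adjusted p = 0.347). Pdk1 thus held 3.78% ± 0.677 of the kinase FPKM in ovary and 36.5% ± 10.4 in testis, and pdk2 stayed the larger in each testis. Only 1 of 3 pdk1 and 8 of 9 pdk2 transcripts were built from ovary. Over testis-built transcripts alone the difference in the pdk1 share, testis minus ovary, was -12.4 percentage points. That value cannot check the rise, since the testis-built pdk2 transcript was at 0 in every ovary and the difference could not be above 0. In the testes this transcript stood at 12.4, 0.19 and 0.2.

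**Figure D3:**
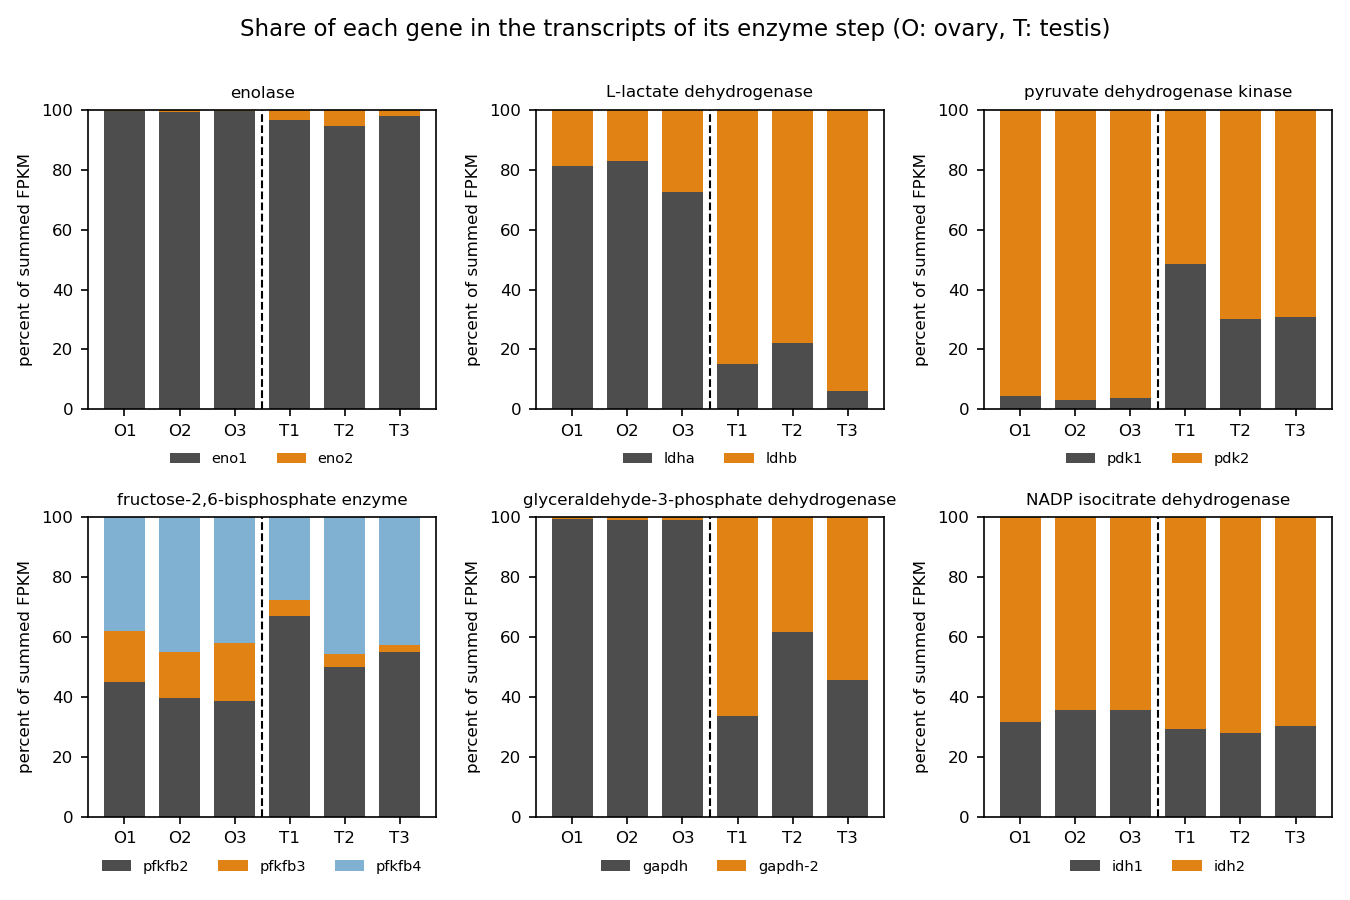
Share of each gene in the summed FPKM of its enzyme step, in percent, 1 bar per fish (O ovary, T testis); the panel of glyceraldehyde-3-phosphate dehydrogenase adds gapdh-2, which lies outside the naming rule. The larger share of L-lactate dehydrogenase is that of ldha in ovary and that of ldhb in testis, though the level of ldha itself did not pass between tissues. The naming of this pair, on which the shares depend, is not settled. The share of idh2 differs by 5.03 percentage points.

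Shares were compared for 12 genes of 10 steps with more than 1 gene, by exact two-sided permutation tests over the fish. For 6 shares the tissues did not overlap: eno2, ldhb, pfkfb2, pfkfb3, pdk1 and idh2. No background was computed for shares, but the FPKM levels of 59.2% of all genes tested did not overlap either. Separation of that kind is thus common between these tissues. Each of the 6 shares had p = 0.1 by the exact test, the smallest that 3 against 3 allows, and 0.2 after adjustment over the 12 shares, so none could pass. The size of the differences ranged from 64.5 percentage points for ldhb and 32.7 for pdk1 to 5.03 for idh2 and 3.24 for eno2.

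The subunits of the pyruvate dehydrogenase complex did not move together. The complex joins E1 (pdha1 and pdhb), which releases carbon dioxide from pyruvate, E2 (dlat), which forms acetyl-CoA, E3 (dld), which restores the lipoyl group, and component X (pdhx), which binds E3 to the E2 core. E1 beta (pdhb) stood at 336, 312 and 279 FPKM in ovary and 96.5, 57.5 and 92.5 in testis (log2 fold change -2.18 ± 0.31, edgeR adjusted p = 0.00247). Its partner E1 alpha (pdha1) stood at 49.2, 60.4 and 93.8 against 134, 66.5 and 111 and did not pass (edgeR adjusted p = 0.466). The ratio of pdhb to pdha1 FPKM was therefore 6.83, 5.16 and 2.97 in the ovaries and 0.720, 0.865 and 0.835 in the testes.

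Component X (pdhx) was near the low end in ovary, at 2.34, 2.17 and 2.07 FPKM, and stood at 38.0, 22.5 and 33.9 in testis. The rise was 11.9-fold (log2 fold change 3.57 ± 0.34, edgeR adjusted p = 0.00102) and every testis was above every ovary. E2 (dlat) stood at 22.8, 23.1 and 21.0 against 65.9, 41.3 and 33.9 (0.99 ± 0.29, edgeR adjusted p = 0.0275), and E3 (dld), which also serves the 2-oxoglutarate dehydrogenase complex, at 22.5, 31.1 and 33.8 against 136, 55.5 and 89.7 (1.40 ± 0.36, edgeR adjusted p = 0.0178). Both rises were less firm than that of pdhx: the dlat call was lost without any one ovary or testis 2 (edgeR adjusted p of 0.0570 to 0.0885) and the dld call without ovary 1 or ovary 2 (0.0705 and 0.0654). The ratio of pdhx to dlat FPKM was 0.0939 to 0.103 in ovary and 0.546 to 0.998 in testis. For 5 subunit ratios tested, the exact two-sided permutation p was 0.1, the smallest allowed, for pdhb to pdha1, pdhx to dlat, idh3a to idh3g and suclg1 to sucla2 (0.125 adjusted over the 5), and 0.6 for idh3a to idh3b.

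In the citric acid cycle 1 of 11 genes was higher in testis, 1 was higher in ovary and 9 did not pass. This was 18.2% called beside 45.9% of all genes tested, and the testes themselves differed. The gene higher in testis was idh3g, the gamma subunit of NAD-dependent isocitrate dehydrogenase, at 38.4, 45.5 and 45.2 FPKM against 146, 132 and 127 (log2 fold change 1.42 ± 0.24, edgeR adjusted p = 0.00452). Its catalytic partner idh3a was among the most abundant enzyme genes of both tissues, at 271, 255 and 264 against 300, 168 and 304 (edgeR adjusted p = 0.518). The beta subunit idh3b stood at 14.1, 19.8 and 13.2 against 47.0, 14.6 and 12.7 (edgeR adjusted p = 0.991). The ratio of idh3a to idh3g was 5.61 to 7.07 in ovary and 1.27 to 2.40 in testis.

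Mitochondrial malate dehydrogenase (mdh2), which closes the cycle, was the gene higher in ovary, at 249, 368 and 325 against 284, 71.5 and 123 (log2 fold change -1.38 ± 0.44, edgeR adjusted p = 0.0385). Testis 1 lay among the ovaries, and the call was lost without any library but testis 1 (edgeR adjusted p of 0.0548 to 0.1). Citrate synthase (cs), the entry of the cycle, stood at 55.1, 74.7 and 49.3 against 93.1, 21.8 and 26.8. Testis 1 was the highest fish and testes 2 and 3 were below every ovary. The E1 subunit of 2-oxoglutarate dehydrogenase (ogdh) stood at 17.7, 18.9 and 18.2 against 53.9, 9.10 and 10.5 and had the same order. Sucla2, the ATP-forming beta subunit of succinyl-CoA ligase, stood at 21.2, 20.0 and 18.1 against 118, 29.3 and 24.4, with every testis above every ovary (1.10 ± 0.53, edgeR adjusted p = 0.127). The edgeR adjusted p of cs and ogdh was 0.374 and 0.897.

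The remaining cycle genes were closer between tissues. Suclg1, the alpha subunit of the ligase, stood at 144, 92.2 and 133 against 138, 70.7 and 102 (edgeR adjusted p = 0.223). Suclg2, its GTP-forming beta subunit, ranged from 9.72 to 16.2 and from 12.1 to 14.7 (edgeR adjusted p = 0.597). Fumarase (fh), which hydrates fumarate to malate, stood at 49.1, 40.3 and 36.5 against 64.0, 44.1 and 37.2 (edgeR adjusted p = 0.715). The log2 fold changes of these 3 genes were -0.53 ± 0.33, -0.22 ± 0.32 and 0.12 ± 0.25.

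Testis 1 stood apart in the cycle. In it 9 of 11 cycle genes and 4 of 5 genes of the pyruvate dehydrogenase complex were above both other testes, against 40.7% of all genes tested and 3 of 14 glycolysis genes. The median of its log2 difference from the mean of the other 2 testes was 1.18 over the cycle genes, 0.55 over the complex, -0.05 over glycolysis and -0.01 over all genes tested. Ogdh was 5.51 times, sucla2 4.38 times, cs 3.83 times and idh3b 3.44 times the mean FPKM of the other testes. The 11 genes took 0.288% of all counts in testis 1, 0.115% and 0.143% in testes 2 and 3, and 0.158% to 0.175% in the ovaries. Glucose synthesis genes pc and pck2 were also at 3.08 and 3.09 times that mean there, whereas ldhb was lowest in testis 1. The same fish had the lowest sum of oocyte markers (610 FPKM) and the highest sums of male germ cell (2040) and muscle markers (848, beside 81.4 and 208). The muscle genes did not move together. Acta2 (468, beside 13.6 and 27.8), tagln (241, beside 28.2 and 116), des and myh11 were highest in testis 1. Myh7 (23.7, beside 32.4 and 30.7) and tnni2 (2.87, beside 4.75 and 25.1) were lowest there. The part of these cell types in the cycle genes was not tested.

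Without testis 1, cs and ogdh passed as higher in ovary, with log2 fold changes of -1.54 ± 0.26 and -1.06 ± 0.23 (edgeR adjusted p = 0.00551 and 0.0130). For ogdh this turned the sign of the fold change. Mdh2 was then at -1.86 ± 0.34 (edgeR adjusted p = 0.00689) and idh3g at 1.40 ± 0.21 (edgeR adjusted p = 0.00366). The cycle then had 4 genes higher in ovary and 1 higher in testis, 45.5% called beside 49.0% of all genes (25.0% higher in testis and 24.0% in ovary), and its median log2 fold change went from 0.01 to -0.65, while that of all genes went from 0.11 to -0.08. Testis 1 was singled out by the values of these same genes, and leaving it out favours such calls. The p-values without it are therefore no separate support for a higher level in ovary. The direction of the cycle between tissues was not settled by these fish.

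**Figure D4:**
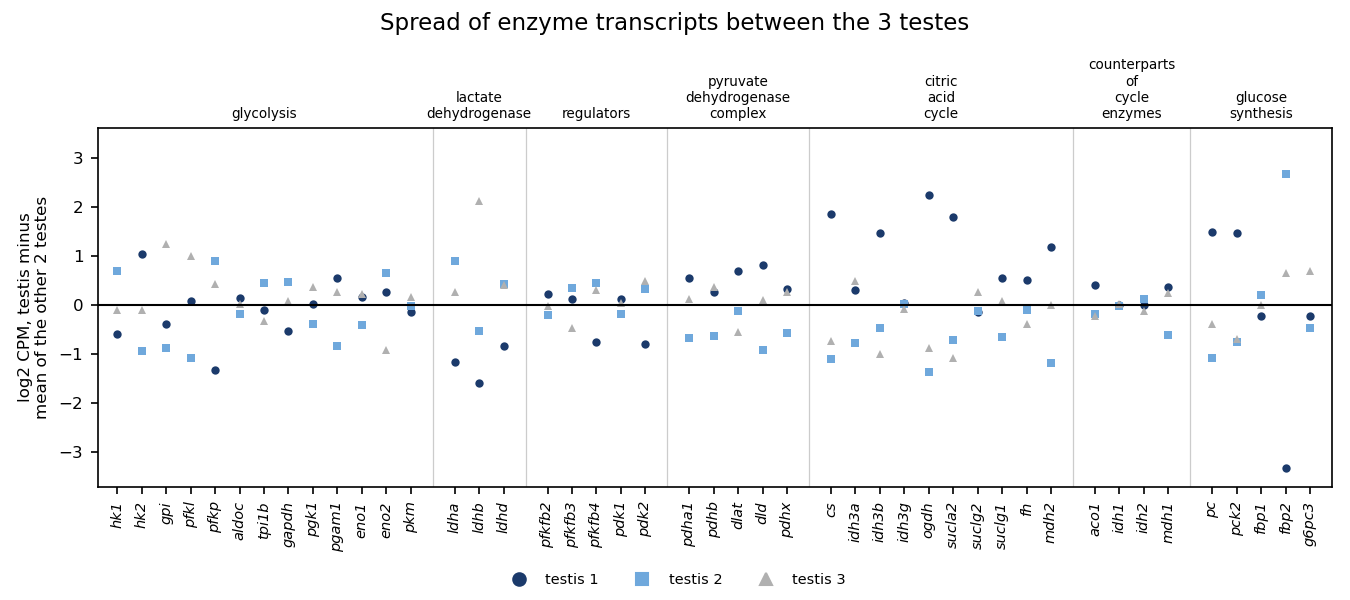
Log2 CPM of each enzyme gene in 1 testis minus the mean of the other 2 testes, for the 3 testes. Ogdh (2.24), cs (1.85), sucla2 (1.8) and idh3b (1.46) are high in testis 1, fbp2 is high in testis 2 (2.67), and ldhb is high in testis 3 (2.11).

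Counterparts of cycle enzymes, which act in the cytosol or use NADP, had 2 of 4 genes higher in ovary and none called higher in testis. This was 50.0% called, near the 45.9% of all genes tested. Idh1, which makes NADPH in the cytosol, stood at 42.9, 59.8 and 55.9 FPKM against 31.1, 27.5 and 28.4 (log2 fold change -1.17 ± 0.23, edgeR adjusted p = 0.00733). Idh2, which makes it in mitochondria, stood at 93.5, 108 and 101 against 74.8, 71.2 and 64.8 (-0.78 ± 0.22, edgeR adjusted p = 0.0253). For both genes the ovaries were all above the testes, and the idh2 call was lost without any ovary or testis 3 (edgeR adjusted p of 0.0603 to 0.0910). Cytosolic malate dehydrogenase (mdh1) is part of the shuttle that carries the electrons of cytosolic NADH into mitochondria. Mdh1 was among the most abundant genes of both tissues, at 315, 393 and 483 against 366, 206 and 303 (edgeR adjusted p = 0.143). Cytosolic aconitase (aco1), which also binds iron-responsive RNA elements, ranged from 11.8 to 13.6 and from 9.78 to 14.4 (edgeR adjusted p = 0.202).

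Of the 5 genes of glucose synthesis 3 were higher in ovary and none was called higher in testis, beside 21.1% and 24.8% of all genes tested. Pyruvate carboxylase (pc), which makes oxaloacetate and also refills the cycle, stood at 28.7, 23.9 and 17.6 FPKM in ovary and 5.13, 1.38 and 1.95 in testis, 10.2-fold higher in ovary (log2 fold change -3.35 ± 0.52, edgeR adjusted p = 0.00333). Phosphoenolpyruvate carboxykinase (pck2), which takes oxaloacetate towards glucose, stood at 81.9, 85.5 and 98.5 against 25.6, 8.05 and 8.5 (-2.96 ± 0.48, edgeR adjusted p = 0.00392). Its protein hit is the mitochondrial form and its nucleotide hits name the cytosolic form, so the form is not settled. Fructose-1,6-bisphosphatase 1 (fbp1), which reverses phosphofructokinase, stood at 142, 183 and 98.3 against 41.9, 50.0 and 46.0 (-1.88 ± 0.27, edgeR adjusted p = 0.00252). The 3 genes separated the tissues in every fish.

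Fbp2, the muscle form of the same enzyme, varied widely within both tissues, from 4.41 to 18.3 and from 1.39 to 21.8 (edgeR adjusted p = 0.796). G6pc3, the widely expressed glucose-6-phosphatase, stood at 7.15, 4.04 and 4.44 against 9.39, 7.12 and 12.5 (edgeR adjusted p = 0.351), and 1 of its 3 transcripts has another gene as its nucleotide hit. At the fructose-bisphosphate step, ovary was thus higher in fbp1 and testis in pfkl and pfkp: summed over their genes, phosphofructokinase stood at 5.74 to 8.91 FPKM in ovary and 29.6 to 44.3 in testis, and the bisphosphatase at 103 to 195 and 43.2 to 71.9. The 5 genes took 0.0535% ± 0.00418 of all counts in ovary and 0.0132% ± 0.00253 in testis.

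Transcripts tested one by one gave fewer calls. Of the 160 transcripts 149 were tested and 18 were called, which is 12.1% beside 10.7% of all 30738 transcripts tested. The testis was higher for 8 and the ovary for 10, and over all transcripts 6.26% and 4.40% were called in these directions. In some genes the transcripts under 1 symbol moved apart, and the table does not tell splice forms from duplicate genes that share a symbol. Mdh1 had a 1295-base transcript at 288, 380 and 457 FPKM in ovary against 198, 133 and 188 in testis, and a 1342-base transcript at 25.5, 5.14 and 23.7 against 166, 65.2 and 90.9. The latter held 4.77% of mdh1 FPKM in ovary and 35.6% in testis, and neither passed on its own (edgeR adjusted p = 0.127 and 0.101). Eno1 had a 1747-base transcript at 30.8, 21.5 and 28.1 against 190, 78.5 and 117 (edgeR adjusted p = 0.0554), beside a 1821-base transcript at 103 ± 14.0 and 116 ± 26.7. Of 7 dlat transcripts only a testis-built one of 4113 bases passed, at 1.36, 0.300 and 0.590 against 35.9, 25.4 and 20.9 (log2 fold change 4.86 ± 0.74, edgeR adjusted p = 0.0295). An ovary-built one of 3233 bases was also higher in every testis, at 0.81 ± 0.211 and 5.16 ± 3.09. Another ovary-built one, of 3241 bases, was lower there, at 9.07 ± 3.32 and 1.72 ± 1.16. Neither ovary-built one passed (edgeR adjusted p = 0.104 and 0.0902).

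Routes next to these enzymes were read from 6 lists of genes outside the 47, of which 49 genes were tested: 8 passed with the testis higher and 15 with the ovary higher. This was 46.9% called beside 45.9% of all genes tested (24.8% higher in testis and 21.1% in ovary), a share near the background, and the counts of the single lists, of 4 to 15 genes, stand beside the same shares. The remaining cycle enzymes (4 of 5 listed genes found) had 2 genes higher in testis, both of succinate dehydrogenase: sdha, its flavoprotein, at 18.0 ± 3.30 and 54.5 ± 28.3 FPKM, and sdhdb, its membrane anchor, at 33.6 ± 8.70 and 91.0 ± 26.2 (edgeR adjusted p = 0.0242 and 0.0198). Dlst, the E2 of 2-oxoglutarate dehydrogenase, and sdhb, the iron-sulfur subunit, did not pass (edgeR adjusted p = 0.309 and 0.207), and 3 of the 4 genes were highest of the testes in testis 1. Of the pyruvate carrier and the dehydrogenase phosphatases (4 of 5 found), mpc1, a subunit of the carrier, and pdp2, which switches the dehydrogenase back on, were higher in ovary (edgeR adjusted p = 0.0437 and 0.0365).

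Glycogen enzymes (15 of 17 found) had 3 genes higher in testis and 4 in ovary. Glycogenin (gyg1), the primer of glycogen, stood at 806, 836 and 842 FPKM in ovary and at 58.9, 66.2 and 75.3 in testis (log2 fold change -3.88 ± 0.36, edgeR adjusted p = 0.00101). Phosphoglucomutase (pgm1), which links glycogen to glycolysis, stood at 8.12, 8.91 and 9.41 against 62.5, 58.9 and 61.9 (2.53 ± 0.25, edgeR adjusted p = 0.00109). The debranching enzyme (agl) stood at 4.24, 3.85 and 2.18 against 27.4, 40.5 and 51.3 (3.31 ± 0.40, edgeR adjusted p = 0.00171).

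The list of sugar entry and lactate export (6 of 16 listed genes found) had 5 genes higher in ovary and 1, hif1a, higher in testis. Adpgk, tigarb and hif1a carry neither sugar nor lactate, so these counts do not describe transport. Slc2a12, the only listed sugar carrier found, was scarce, at 2.63 ± 0.47 and 0.77 ± 0.363 FPKM (edgeR adjusted p = 0.0442). The genes with the smallest adjusted p were tigarb, which removes fructose-2,6-bisphosphate (-2.18 ± 0.29, edgeR adjusted p = 0.00205), adpgk, an ADP-dependent glucokinase (-1.61 ± 0.24, 0.00309), and slc16a7, a carrier of pyruvate and lactate (-5.02 ± 1.01, 0.00759). In the pentose phosphate route (10 of 11 found), rpe, the ribulose-phosphate epimerase, was higher in ovary (edgeR adjusted p = 0.00205) and rpia, the ribose-phosphate isomerase, in testis (edgeR adjusted p = 0.0409). Of the genes that refill the cycle or export citrate (10 of 12 found), 2 were higher in ovary: me3, an NADP-dependent mitochondrial malic enzyme, at 71.5 ± 8.69 and 6.37 ± 1.96 FPKM, and nnt, the NADPH-making transhydrogenase, at 248 ± 39.7 and 35.8 ± 13.2 (edgeR adjusted p = 0.000918 and 0.00249). Me2, the NAD-dependent malic enzyme, was called higher in testis (edgeR adjusted p = 0.0184), at 0.5, 0.35 and 0.7 against 123, 4.93 and 3.09, and most of that level was in testis 1.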

How the data were processed

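RNA of 3 ovaries and 3 testes had been extracted with TRIzol and made into libraries with the NEBNext Ultra kit, per the labels. The submitters' processing notes list featureCounts 1.5.0-p3, HISAT2 2.0.5, fastp and CASAVA 1.8 with no role. Not given in the sources used here are the genome build and the program that made these values. The deposited table holds, per the file headers, read counts and FPKM for 35011 full-length transcripts. The deposited counts are estimated counts, since only 26.5% to 31.6% of a library's values are whole, so reads of similar transcripts and paralogs may be split between them. The deposited FPKM were scaled by the authors to transcript length and library size, and summed to 721650 to 1312673 per library. The plan had named whole counts or FPKM alone.

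Counts were rounded per transcript and both units were summed per symbol, and a transcript that had no symbol stayed a unit of its own (13194 units). Testis was tested against ovary with edgeR 4.0.16 in R 4.3.3 (TMM, filterByExpr, robust quasi-likelihood fit, tissue as the only term), and an adjusted p under 0.05 was called. The fit was tested on simulated data with few changed genes, rising and falling in about equal number. That test does not cover differences as broad as those between these tissues. The edgeR p-values set the difference between tissues against the spread between these fish. Alternatives used limma 3.58.1, DESeq2 1.42.0, other normalizations and filters, a replicate block, ovary-built or testis-built transcripts alone, single transcripts, and each library left out. Shares and ratios were computed with Python 3.11.15, pandas 2.3.3 and numpy 2.4.6, and figures with matplotlib 3.10.9. The members, lists and tests were chosen with earlier results of these data known. Values per fish were given for the 8 members with the highest mean FPKM in either tissue. They were also given for the 8 largest called rises and 8 largest called falls whose higher tissue averaged 10 FPKM or more. The most abundant member of each enzyme step and a fixed set of isozymes were added. Of a neighbouring list, the called genes with the 3 smallest adjusted p were named. Hif1a, slc2a12, dlst, sdhb and single marker genes were named beyond that after their values were seen. The chromosomes and sequences of the genes were not used here. Some of the genes counted here are not reported by name or drawn.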

Additional observations from a re-analysis of the deposited data

How the results depend on the processing

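Of 25 called genes followed one by one, 18 kept their call under each of 14 alternatives over all transcripts. With the fits on ovary-built and on testis-built transcripts alone counted too, 9 kept it in every setting that held them and 16 lost it somewhere. Of the 9, ldhb, pdhb, pdhx and pgk1 have only testis-built transcripts, and pc and pck2 only ovary-built ones. These genes could not lose the call in the other set. The fit on single transcripts is not in these counts. There the only transcript of pgk1 did not pass (edgeR adjusted p = 0.137), while those of ldhb, pdhb and pdhx did. RLE scaling gave 12 calls higher in testis and 14 in ovary, upper quartile 13 and 12, no filter 12 and 14, DESeq2 12 and 15, limma-voom 12 and 14, and limma on log2 FPKM with either pseudocount (1 or 0.1) 13 and 12. Over all genes these settings called 2751 to 3567 higher in testis and 2274 to 3165 in ovary. They tested 12367 genes, or 13134 with no filter. Upper quartile scaling moved the median over all genes (log2) from 0.11 to 0.30 and FPKM to 0.26 and 0.29, and it lost pfkfb4 and idh2; FPKM lost mdh2 and idh2.

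The transcript set, and the library scaling that changed with it, mattered most. Over ovary-built transcripts alone 34 genes were tested, with 2 calls in testis and 6 in ovary (8 in all), and over testis-built ones 36, with 4 and 14. Calls over all genes were fewer too. In the former fit 1159 of 9112 genes were called higher in testis and 1308 in ovary. The latter had 1103 and 897 of 7459, beside 3073 and 2605 of 12367 in the main fit. The fold change of dlat turned to -0.18 in the former and that of dld to -0.15 in the latter, and neither passed. All transcripts of dld, aldoc, pfkp, hk1 and eno2 are testis-built, so the latter fit held the same counts for them. For these genes only the other genes in the fit and the scaling of libraries differed. Aldoc went from 2.16 to 0.70, pfkp from 2.83 to 1.485, hk1 from 2.83 to 1.44 and eno2 from 3.61 to 2.13. None of these genes passed there (edgeR adjusted p of 0.117 to 0.204). The 4 and 14 calls rest on the same scaling. Calls were also lost over ovary-built transcripts for hk2, pdk1, fbp1, pgam1 and idh1 (edgeR adjusted p = 0.0840, 0.440, 0.170, 0.05495 and 0.0518). The same held for pfkfb4 and mdh2 (edgeR adjusted p = 0.755 and 0.0575). Over testis-built ones the calls of hk2, idh3g, pfkl, pfkfb4 and mdh2 were lost (edgeR adjusted p = 0.0908, 0.180, 0.716, 0.0584 and 0.542). The log2 fold change of pfkl went from 1.55 to 0.36 there. Over testis-built transcripts the difference in share, testis minus ovary, was -12.4 points for pdk1, -5.57 for idh2, -3.69 for hk1, -5.46 for mdh1, 4.90 for eno2, 26.9 for pfkfb2 and -30.1 for pfkfb3; over ovary-built ones it was 5.59 for pdk1; from counts it was -15.8 for pfkfb3. Steps with a gene in only 1 transcript set gave no value. The pdk1 difference over testis-built transcripts could not be above 0, since the pdk2 transcript of that set was at 0 in every ovary. The cause of the other differences in share was not tested. From the FPKM sum, the difference in share was -0.286 points for glycolysis, -0.0203 for pyruvate dehydrogenase and -0.0276 for glucose synthesis; without egg envelope and ribosomal protein transcripts it was -0.298 for glycolysis and -0.0546 for glucose synthesis.

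With 1 library left out, calls ran from 8 to 12 in testis and 11 to 17 in ovary (19 to 29 together), and in the neighbouring lists from 3 to 7, 10 to 17 and 14 to 24. Over all genes these fits called 2001 to 3154 higher in testis and 1892 to 3026 in ovary, of 12589 to 12634 tested. The edgeR adjusted p of ogdh then ran from 0.0130 to 0.992, passing, with the sign turned, only without testis 1.

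Same-numbered fish are different animals, and their deviations did not correlate (r = -0.028, 0.006 and -0.031), nor did every sample correlate best with its own number. A replicate block gave 8 calls in testis and 12 in ovary, without hk1, pfkl, dlat, dld, mdh2 and idh2, and in the lists 4 in testis and 15 in all. Over all genes it called 2272 higher in testis and 2061 in ovary, of 12367 tested. Depth, 11913969 to 18508307 counts, limits scarce genes such as hk1 most.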
